A study of Homo sapiens with 3 samples.

Results

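The histone genes described here were the 74 genes of the replication-dependent histone clusters (symbols starting with HIST1H, HIST2H, HIST3H or HIST4H, without pseudogene symbols) and 9 polyadenylated histone variants (H2AFX, H2AFZ, H2AFV, H2AFY, H2AFJ, H3F3A, H3F3B, H1F0 and H1FX). They were chosen by symbol, 83 of the 60930 genes in the expression table, and the rule itself used no measured value. All 9 variants and 46 of the 74 cluster genes averaged 1 TPM or more over the libraries (TPM is the read density per transcript length, scaled to the same sum in each library) and were compared. Linker histone H1 mRNA took a larger share of histone TPM under both hairpins against USP16, a share not corrected for GC content. H2A.Z mRNA was lower under both, as were 7799 of the 13637 genes compared. Of the 46 compared cluster genes, 45 were higher under shUSP16#1 than under shUSP16#2, as were 73.4% of all genes.

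Core histones H2A, H2B, H3 and H4 form the nucleosome, and linker histone H1 binds the DNA that enters and leaves it. Cluster genes supply the bulk of histone protein during S phase, and their mRNA usually has no poly(A) tail: it ends just after a stem-loop that is bound by SLBP, the stem-loop binding protein. Variant genes make polyadenylated mRNA, most of them through the whole cell cycle, and H2AFX can also make mRNA that ends at a stem-loop. Most variant genes lie away from the cluster genes, while H2AFJ lies near HIST4H4 on chromosome 12. Several cluster genes can also use a downstream poly(A) site, a form best known from differentiated or slowly dividing cells. USP16 is a deubiquitinase whose best known substrate on chromatin is ubiquitinated H2A.

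RNA-seq was done on PC3 cells, an androgen-independent human prostate cancer line, and the libraries came from 3 kinds of cells: those with the control hairpin (shCON), and those with a hairpin against USP16 (shUSP16#1 or shUSP16#2). Each condition had 1 library, so no difference below has a replicate check, no test across samples exists and no p-value is given. Both hairpins are compared with the same shCON library, so their changes are given side by side and share its error. The depth of the libraries is unknown, because TPM keeps no count of reads.

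USP16 itself was at 19.9 TPM in shCON, 3.5 under shUSP16#1 and 1.08 under shUSP16#2. KRT8, KRT18, CD44, VIM and CAV1, markers of PC3, were all detected, and KLK3, a marker of androgen-responsive prostate cells, was listed at 0 in all 3 libraries. Leukocyte and endothelial markers summed to at most 1.39 TPM in a library, and fibroblast markers to 4.34, 11.13 and 4.96 TPM in shCON, shUSP16#1 and shUSP16#2, nearly all of it COL1A1, and their part in the histone values was not tested. Changes were taken between log2(TPM + 1) of a hairpin library and of shCON, and adding 1 makes the change of low genes appear smaller than it is. Over all 13637 genes compared the median change was -0.17 under shUSP16#1 and -0.37 under shUSP16#2, and a value "relative to all genes" has that median subtracted.

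The stem-loop is shown first, because it is the feature that sets the mRNA of cluster genes apart from other mRNA. The motif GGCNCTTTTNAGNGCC was searched on the sense strand of the GENCODE release 29 transcripts, and 40 of 58676 genes (0.0682%) held it. Of these, 34 were cluster genes and 1 was the variant gene H2AFX. In the sequences below, the capitals mark the 16 bases of the motif, a stem of paired bases around a T-rich loop, with 5 bases on either side.
HIST2H2AA3: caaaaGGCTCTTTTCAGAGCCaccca
HIST1H2AC: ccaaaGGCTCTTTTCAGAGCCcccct
HIST1H2BC: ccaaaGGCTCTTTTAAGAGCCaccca
HIST1H3H: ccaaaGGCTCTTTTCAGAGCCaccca
HIST1H4J: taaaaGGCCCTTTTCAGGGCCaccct
HIST2H4A: ccaaaGGCCCTTTTTAGGGCCgacca
H2AFX: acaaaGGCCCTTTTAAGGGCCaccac
The motif was the same in HIST2H2AA3 and HIST1H2AC, and H4 genes had their own forms. The form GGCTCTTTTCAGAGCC was held by 9 H2B, 6 H2A and 3 H3 genes, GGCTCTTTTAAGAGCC by 3 H2B and 2 H3 genes, and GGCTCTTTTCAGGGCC by 2 H2B genes and 1 H2A gene. All 8 H4 genes with the motif had a stem closed by more G and C, as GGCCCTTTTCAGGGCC in 5 and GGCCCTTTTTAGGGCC in 3, and H2AFX had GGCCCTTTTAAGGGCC.

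Many gene models ran past the stem-loop. Among the 35 histone genes with the motif, 25 had a transcript with at least 100 bases after it, and 17 of these had the poly(A) signal AATAAA or ATTAAA within the last 40 bases of that transcript. The ends below show that signal in capitals in 4 genes, 3 of which (HIST1H2AC, HIST3H2A and HIST2H2BE) are known to make polyadenylated mRNA.
HIST1H2AC: ggcatgaggtAATAAAaggtaatgca
HIST3H2A: tttatctgatATTAAAagtatttatg
HIST2H2BE: tattgttattAATAAAgttaccaatt
HIST1H3H: tgtatgactaAATAAAatctgtataa
The HIST1H2AC transcript with this end continued for 1128 bases past its stem-loop, that of HIST2H2BE for 1729 bases and that of HIST3H2A for 390 bases.

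Promoters are shown for a linker histone gene, an H2A cluster gene and a variant gene whose values are described below. They are RefSeq sequences of GRCh38.p14 from 250 bases before to 50 bases after the gene's start, written along the strand of the gene, and 68 of the 83 histone genes had one. HIST1H1C lies at chr6:26056421-26056720 on the minus strand, HIST1H2AC at chr6:26123922-26124221 on the plus strand and H2AFZ at chr4:99950226-99950525 on the minus strand. Capitals mark CCAAT (or ATTGG, its reverse complement) and TATAAA.
HIST1H1C: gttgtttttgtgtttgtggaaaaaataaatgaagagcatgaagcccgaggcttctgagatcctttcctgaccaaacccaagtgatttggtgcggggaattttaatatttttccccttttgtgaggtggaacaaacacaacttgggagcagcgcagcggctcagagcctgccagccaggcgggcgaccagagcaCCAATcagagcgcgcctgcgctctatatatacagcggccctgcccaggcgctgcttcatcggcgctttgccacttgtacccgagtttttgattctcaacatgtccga
HIST1H2AC: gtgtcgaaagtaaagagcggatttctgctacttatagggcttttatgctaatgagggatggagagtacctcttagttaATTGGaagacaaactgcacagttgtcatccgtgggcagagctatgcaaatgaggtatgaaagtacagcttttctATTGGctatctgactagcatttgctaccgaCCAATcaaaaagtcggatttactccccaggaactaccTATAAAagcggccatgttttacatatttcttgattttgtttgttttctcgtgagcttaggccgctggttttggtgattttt
H2AFZ: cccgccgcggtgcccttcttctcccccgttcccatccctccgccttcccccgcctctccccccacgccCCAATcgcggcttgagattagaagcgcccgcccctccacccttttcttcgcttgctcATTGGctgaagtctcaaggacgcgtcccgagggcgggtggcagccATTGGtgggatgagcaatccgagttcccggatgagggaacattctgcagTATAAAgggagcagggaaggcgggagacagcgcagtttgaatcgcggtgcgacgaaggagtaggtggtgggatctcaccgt
CCAAT on either strand was in 50 of 60 cluster promoters (83.3%), 6 of 8 variant promoters (75%) and 35.7% of all 27305 promoters of this length. TATAAA on either strand was in 40 of the 60 (66.7%), 4 of the 8 (50%) and 12% of all. CACGTG, the palindromic E-box letters, was in 0 of 60 cluster and 0 of 8 variant promoters and in 7.43% of all. These are matches of letters in a window and not mapped sites.

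Among cluster genes, 55 lie on chromosome 6 between 25726132 and 27893843 of GRCh38 (GENCODE release 29), 18 on chromosome 1 and HIST4H4 alone on chromosome 12. Their listed levels were very uneven. The median of their mean levels was 2.24 TPM, against 236 TPM for the variants, and 10 cluster genes were listed at 0 in all 3 libraries. Cluster mRNA mostly lacks a poly(A) tail, and whether RNA was selected by its tail is not given in the sources used here. These TPM may therefore not compare cluster genes and variants as amounts of mRNA, and the part of RNA selection was not tested. HIST1H2BK, HIST1H1C, HIST2H2AA4, HIST2H2AA3 and HIST2H4A together held 71% of all cluster TPM in shCON, 70% for shUSP16#1 and 76.4% for shUSP16#2. The replacement gene H3F3B and the H2A.Z gene H2AFZ were the most abundant histone genes by mean level, followed by HIST1H2BK and HIST1H1C. Without replicates, the order of near neighbours such as HIST2H2AA3 and HIST2H2AA4 cannot be told from spread.

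**Figure D1:**
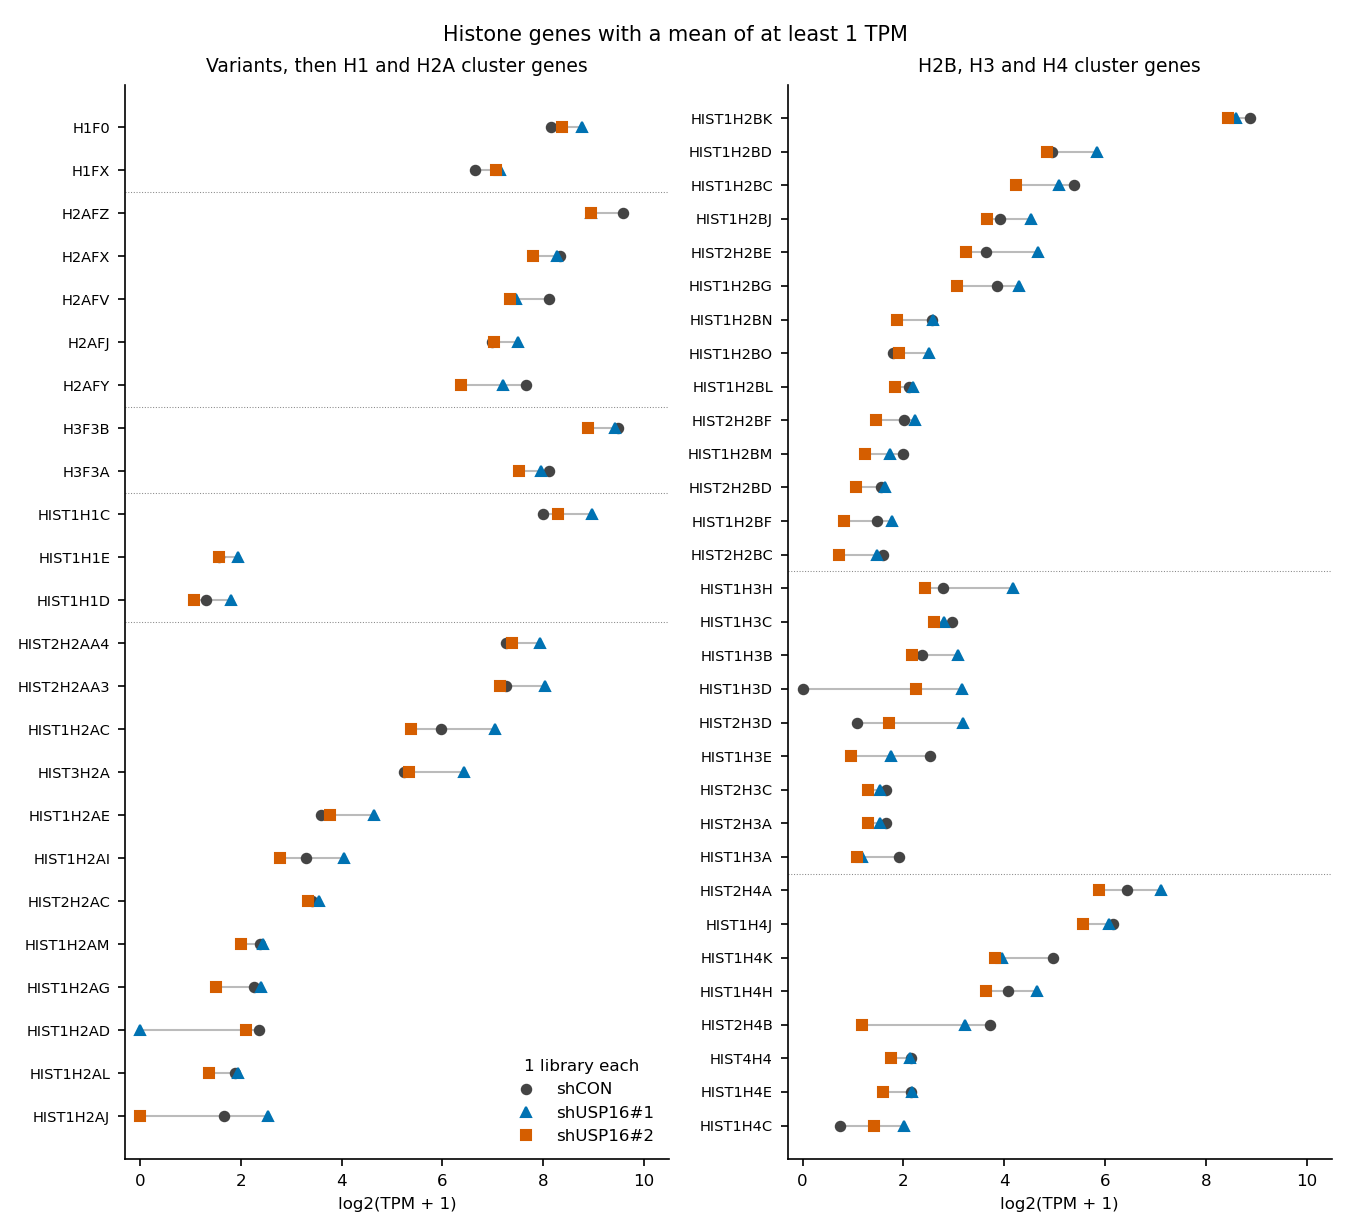
Levels of the 55 compared histone genes, as log2(TPM + 1) on the horizontal axis, with 1 symbol per library (circle shCON, triangle shUSP16#1, square shUSP16#2) and a grey line over their range. Variants crowd the right of the axis, most cluster genes lie under 5, and the triangle is right of the square for 54 of the 55 genes, with HIST1H2AD, listed at 0 under shUSP16#1, as the exception.

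Cluster genes known to be polyadenylated held more of the cluster TPM than all others together. The 10 cluster genes also known to make polyadenylated mRNA (HIST1H1C, HIST1H2AC, HIST1H2BC, HIST1H2BD, HIST1H2BG, HIST1H2BJ, HIST1H2BK, HIST2H2BE, HIST3H2A and HIST4H4) all reached 1 TPM and had a median of 34.1 TPM, and their mean levels summed to 1001 TPM. The other 64 cluster genes had a median of 1.71 TPM and summed to 693 TPM, with 36 reaching 1 TPM. By model, the 24 genes with a stem-loop and a longer end had a median of 3.02 TPM. The 10 whose transcripts with a stem-loop stopped near it had 13.0 TPM, and the 40 with no stem-loop letters in any transcript 1.27 TPM. For 30 of these 40 the length used for TPM equalled the coding sequence alone, so reads from untranslated ends would not have been counted for them. HIST1H2BK and HIST1H1C, the most abundant cluster genes, were in that group.

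**Figure D2:**
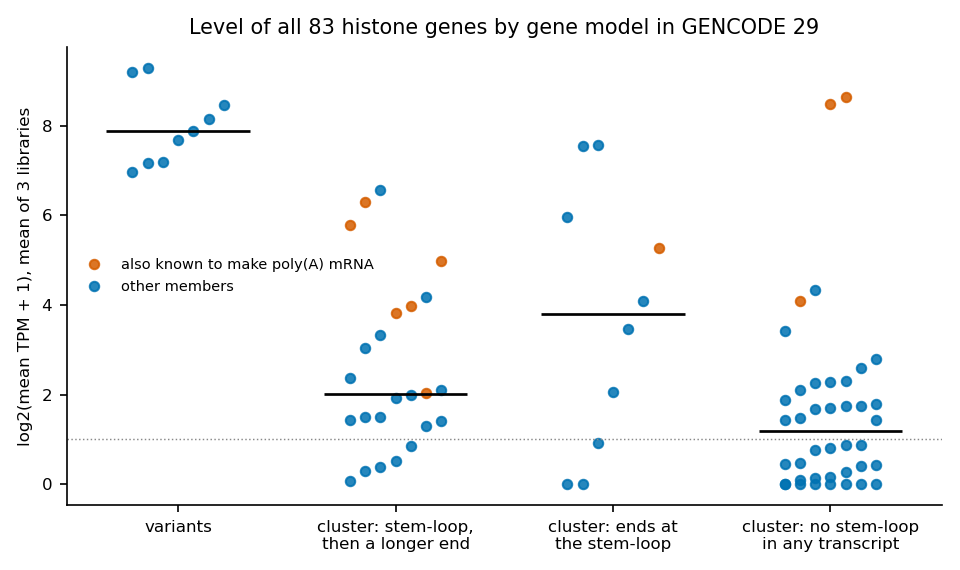
Mean level over the 3 libraries of all 83 histone genes, as log2(mean TPM + 1), by gene model in GENCODE release 29, with the black line at the median and the dotted line at 1 TPM. All 10 cluster genes also known to make polyadenylated mRNA (orange) lie above the dotted line, and all 9 variants lie above 6 on this axis.

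Across the 46 compared cluster genes the median change was 0.27 for shUSP16#1, which is 0.44 relative to all genes, and -0.39 for shUSP16#2, which is -0.021 relative to all genes. Under shUSP16#1, 32 of the 46 were higher than in shCON, where 37.7% of all genes were, and under shUSP16#2, 8 of the 46 were higher, where 29.5% of all genes were. The 9 variants had medians of -0.065 and -0.59, and H1F0, H1FX and H2AFJ were the 3 above shCON under each hairpin. The cluster median lay above that of the variants by 0.34 under shUSP16#1 and 0.20 under shUSP16#2. The latter difference was -0.07 once the trend of changes with GC content was removed, while the first became 0.46.

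A change of 2-fold on the log2(TPM + 1) scale was passed by few histone genes. Under shUSP16#1, 8 cluster genes were at least 2-fold higher (2.83% of all genes were) and 2 were at least 2-fold lower (5.79% of all). Under shUSP16#2, 1 cluster gene was at least 2-fold higher (2.8% of all), and 5 cluster genes and the variant H2AFY were at least 2-fold lower (19.5% of all). HIST1H4K was the 1 histone gene at least 2-fold lower under both hairpins (4.6% of all genes), and HIST1H3D, listed at 0 in shCON, the 1 at least 2-fold higher under both (1.14% of all).

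The hairpin libraries differed from each other in a comparison that does not use shCON. The level was higher under shUSP16#1 than under shUSP16#2 for 45 of 46 cluster genes and 9 of 9 variants, where 73.4% of all genes were. The median difference was 0.74 for cluster genes, 0.43 for variants and 0.21 for all genes. With the GC trend removed it was 0.76, 0.36 and 0.20. The hairpin that left more USP16 mRNA, shUSP16#1, had the higher cluster levels, and each hairpin is represented by 1 library. The shCON library had the most USP16 mRNA, and its summed cluster TPM of 1562 lay between 2186 under shUSP16#1 and 1336 under shUSP16#2. The part of the USP16 level in the cluster values was not tested.

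**Figure D3:**
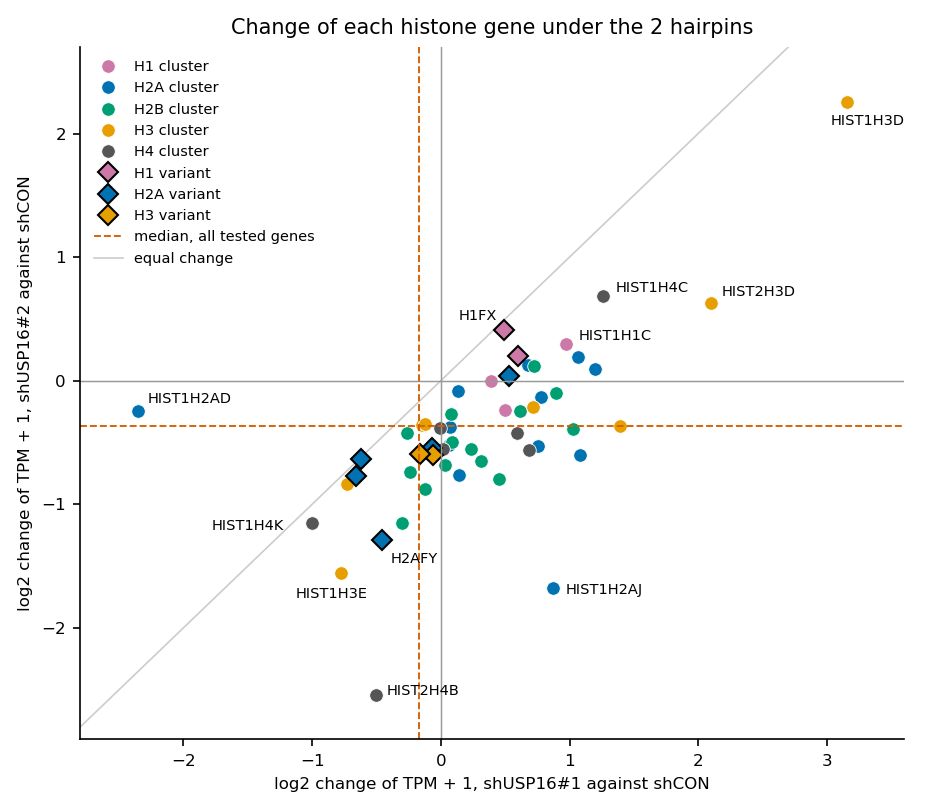
Change of each of the 55 compared histone genes under shUSP16#1 (horizontal) and shUSP16#2 (vertical), as the difference in log2(TPM + 1) from the shared shCON library, coloured by histone class, with circles for cluster genes and outlined diamonds for variants. Points other than HIST1H2AD lie below the grey line of equal change, and the orange dashed lines mark the medians of all 13637 genes at -0.17 and -0.37.

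Summed over each class, cluster histone mRNA was at 1562 TPM in shCON, 2186 for shUSP16#1 and 1336 for shUSP16#2, ratios of 1.40 and 0.855 to shCON. The 9 variants summed to 3064, 2814 and 2198 TPM, ratios of 0.918 and 0.717. Among cluster classes, H1 and H2A carried the higher sum under shUSP16#1. Cluster H2A was at 451 TPM in shCON, 792 for shUSP16#1 and 425 for shUSP16#2. The H2B sum was 599, 569 and 434 TPM in the same order, and the H4 sum was 224, 262 and 138 TPM. Cluster H3 genes summed to 31.1, 56.8 and 24.9 TPM, far less than the 992, 936 and 655 TPM of the H3 variant genes H3F3A and H3F3B. The limit given above for comparing the TPM of cluster genes and variants applies here too.

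**Figure D4:**
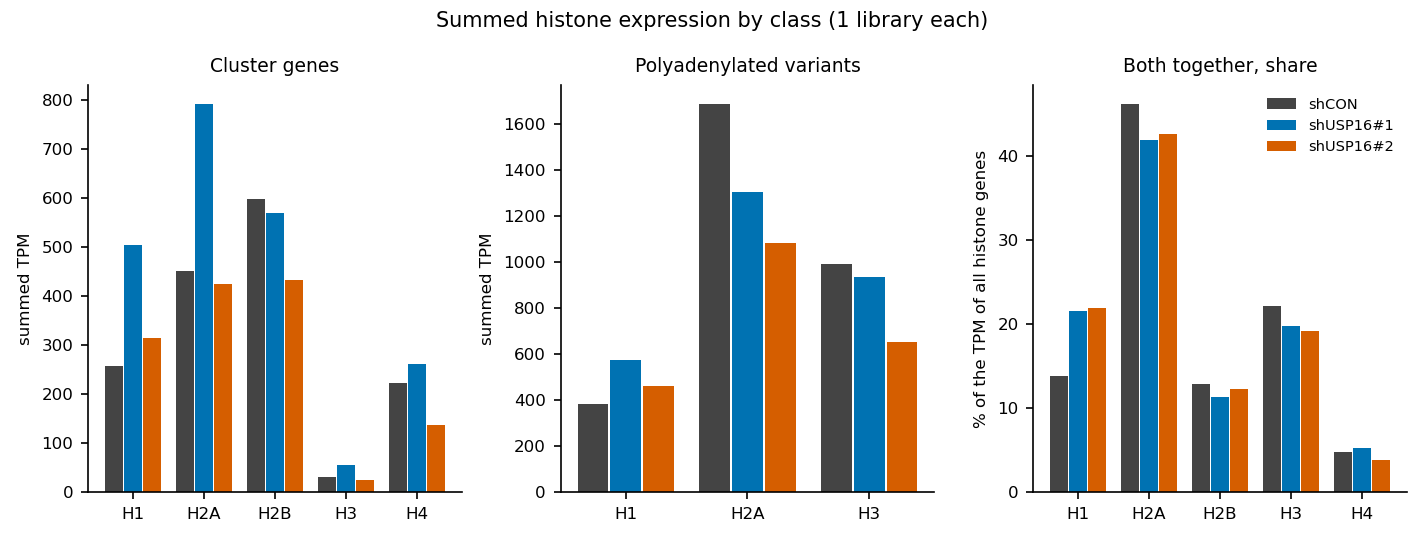
Summed TPM of cluster genes (left) and polyadenylated variants (middle) by histone class, and the share of each class in the TPM of all 83 histone genes (right), with 1 bar per library. With cluster genes and variants pooled, the H1 share is 13.9% in shCON and 21.6% and 21.9% under the hairpins. Every other pooled class except H4 under shUSP16#1 has a smaller share than in shCON.

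Linker histone H1 stood out in the shares when the cluster genes and variants of each class were pooled. Counted apart from its variants, cluster H2A also gained share, at 9.74%, 15.8% and 12.0% for shCON, shUSP16#1 and shUSP16#2. The H2A variants lost share, at 36.5%, 26.1% and 30.6% in the same order. Cluster H3 was at 0.672%, 1.14% and 0.704%, cluster H2B at 12.9%, 11.4% and 12.3%, and cluster H4 at 4.83%, 5.24% and 3.89%. In shCON, H1 genes together held 13.9% of the TPM of all histone genes, against 21.6% for shUSP16#1 and 21.9% for shUSP16#2, and their sum was 642, 1079 and 775 TPM. HIST1H1C, the abundant cluster H1 gene (chromosome 6, 26055787 to 26056428, minus strand), was at 254 TPM in shCON, 499.9 under shUSP16#1 and 311 under shUSP16#2. H1F0, the replacement linker histone typical of cells that have stopped dividing, was at 286, 433 and 328 TPM. H1FX, the most divergent somatic linker histone, was at 99.3, 139.97 and 132 TPM. All 3 were above shCON in both hairpin libraries, with log2 changes of 0.97 and 0.29, 0.60 and 0.20, and 0.49 and 0.41. With the GC trend removed the changes under shUSP16#2 were -0.061 for HIST1H1C and -0.27 for H1FX, and that of H1FX under shUSP16#1 was -0.042, so these 3 directions turned. Relative to the median of all genes, all 3 stayed higher with the trend removed, by 0.91 and 0.31 for HIST1H1C, 0.66 and 0.43 for H1F0, and 0.13 and 0.11 for H1FX. H1FX had 17.2% of its windows of 50 bases in other genes, most often in the antisense gene H1FX-AS1, and it is not stated whether counting used strand. The other compared H1 genes were low: HIST1H1E was at 1.95, 2.86 and 1.95 TPM, and HIST1H1D at 1.47, 2.49 and 1.1 TPM.

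Among H2A cluster genes, 11 of the 12 compared were higher under shUSP16#1 than in shCON (37.7% of all genes were). Under shUSP16#2, 3 of 12 were higher (29.5% of all). The class median was 0.71 and -0.31. HIST2H2AA3 was at 153, 262 and 139 TPM and its copy HIST2H2AA4 at 152, 244 and 167 TPM. HIST1H2AC, whose promoter and 3′ end are printed above, was at 61.6 TPM in shCON, 132 under shUSP16#1 and 40.4 under shUSP16#2. HIST3H2A went from 36.7 TPM in shCON to 85.6 under shUSP16#1 and 39.4 under shUSP16#2. All 4 were highest in the shUSP16#1 library. Under shUSP16#2 HIST1H2AC had a log2 change of -0.60, HIST2H2AA3 -0.13, HIST2H2AA4 0.13 and HIST3H2A 0.098. HIST1H2AE, at 11.0, 24.1 and 12.7 TPM, had the same shape as HIST3H2A. HIST1H2AD was listed at 0 under shUSP16#1 with 4.12 TPM in shCON and 3.32 under shUSP16#2, and HIST1H2AJ was listed at 0 under shUSP16#2 with 2.19 and 4.83 TPM in the others.

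In the H2B class the most abundant gene was under shCON in both hairpin libraries. HIST1H2BK was at 465 TPM in shCON, 388 under shUSP16#1 and 346 under shUSP16#2, log2 changes of -0.26 and -0.43, and held most of the class sum. So was HIST1H2BC, at 40.6, 32.8 and 17.7 TPM. HIST1H2BD was at 29.6, 56.1 and 27.6 TPM, HIST2H2BE at 11.4, 24.3 and 8.41 TPM, and HIST1H2BJ at 14, 21.99 and 11.7 TPM. HIST1H2BG followed them at 13.4, 18.6 and 7.3 TPM. All of these 6 genes are known to make polyadenylated mRNA as well. Over the 14 compared H2B genes, 10 were higher under shUSP16#1 (37.7% of all genes were) and 1 under shUSP16#2 (29.5% of all). The class medians were 0.16 and -0.52. The class includes HIST2H2BC and HIST2H2BD, which GENCODE lists as transcribed pseudogenes.

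H3 cluster genes were all under 20 TPM in every library. HIST1H3H was at 5.9 TPM in shCON, 17.1 under shUSP16#1 and 4.34 under shUSP16#2, HIST1H3C at 6.75, 5.99 and 5.06 TPM, and HIST1H3B at 4.17, 7.5 and 3.47 TPM. HIST2H3D was at 1.11, 8.06 and 2.27 TPM, above shCON in both hairpin libraries. HIST1H3E at 4.72, 2.35 and 0.95 TPM and HIST1H3A at 2.76, 1.27 and 1.11 TPM were lower in both. HIST1H3D was listed at 0 in shCON, with 7.93 and 3.78 TPM under the hairpins, and no fold is given against 0. Over the 9 compared H3 genes, 5 were lower under shUSP16#1 (61.7% of all genes were) and 7 under shUSP16#2 (70.2% of all). HIST2H3A and HIST2H3C, whose values are the same, were counted as 2 genes.

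H4 genes differed among themselves although they encode the same protein. HIST2H4A was at 85.6 TPM in shCON, 138 under shUSP16#1 and 57.7 under shUSP16#2, and HIST1H4H followed this pattern at 15.8, 24.2 and 11.5 TPM. HIST1H4J was at 70.4, 66.1 and 46.2 TPM. HIST1H4K was at 30.2 TPM in shCON and at 14.6 and 13.0 TPM under the hairpins, log2 changes of -1.0 and -1.15. HIST1H4C was listed low, at 0.67, 3.01 and 1.68 TPM. HIST4H4, on chromosome 12, was at 3.42, 3.4 and 2.39 TPM. Of the 8 compared H4 genes, 4 were higher under shUSP16#1 (37.7% of all genes were) and 1 under shUSP16#2 (29.5% of all). The class medians were 0.0065 and -0.56.

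Near-identical copies limit what can be said of single genes. Of the 46 compared cluster genes, 16 had over 50% of their 50-base windows in another annotated gene, and 21 had under 5%. HIST2H3A and HIST2H3C were listed with the same value in each library (2.13, 1.88 and 1.45 TPM) and had every window in common. Summed over copies, HIST2H2AA3 and HIST2H2AA4 were at 305, 506 and 306 TPM, a ratio of 1.66 and 1.00 to shCON. HIST1H4J and HIST1H4K together were at 101, 80.6 and 59.2 TPM, ratios of 0.802 and 0.589. HIST2H4A and HIST2H4B together were at 97.7, 146 and 58.9 TPM, ratios of 1.5 and 0.603, while HIST2H4B alone was at 12.1, 8.27 and 1.25 TPM. HIST1H3D had every window, and HIST1H2AD 98.0%, in other genes, most often in AL031777.3, which was listed at 8.21, 12.75 and 4.46 TPM. HIST1H2BK had 74.1% of its windows in other genes, most often in H2BFS, which was listed at 0 in all 3 libraries. By contrast HIST1H1C, HIST1H2AE, HIST1H3A, HIST1H3B, HIST1H3C, HIST1H3H and HIST1H4C shared none.

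The polyadenylated variants of H2A fell into different patterns. H2AFZ and H2AFV encode the H2A.Z proteins, which mark promoters and are loaded by dedicated remodelling complexes. H2AFZ was at 762 TPM in shCON, 494 under shUSP16#1 and 490.05 under shUSP16#2, log2 changes of -0.62 and -0.64. H2AFV was at 276, 175 and 161 TPM, changes of -0.66 and -0.77. Both were lower in both hairpin libraries, as were 7799 of the 13637 genes compared, and H2AFZ by nearly the same amount in each. Relative to all genes with the GC trend removed, both stayed lower, by -0.41 and -0.21 for H2AFZ and by -0.23 and -0.053 for H2AFV. H2AFY, the gene of macroH2A, was at 201, 146 and 81.5 TPM, and 29.8% of its windows of 50 bases were in other genes, most often in C5orf66. H2AFX, whose protein is phosphorylated at DNA breaks, was at 323, 309 and 221 TPM. H2AFJ, a variant described in senescent cells, was at 125, 181 and 128 TPM, a change of 0.53 under shUSP16#1 and 0.037 under shUSP16#2.

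H3F3A and H3F3B encode the same H3 variant, which is deposited outside replication. H3F3B was at 716, 688 and 472 TPM and H3F3A at 276, 247 and 183 TPM. Their log2 changes were -0.057 and -0.16 under shUSP16#1, and -0.60 and -0.59 under shUSP16#2, so both were lowest in the shUSP16#2 library. The share of variants in all histone TPM was 66.2% in shCON, against 56.3% for shUSP16#1 and 62.2% for shUSP16#2.

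H2A and H2B genes often lie head to head and share a short promoter region. There were 13 such pairs, with starts 124 to 331 bases apart in GENCODE release 29, and both genes were compared in 10. HIST1H2AC and HIST1H2BC start 219 bases apart, so the HIST1H2AC promoter printed above spans the region between them. Their changes had opposite directions under shUSP16#1, while both genes were below shCON under shUSP16#2. HIST1H2AC changed by 1.08 and -0.60 and HIST1H2BC by -0.30 and -1.15. HIST1H2AE and HIST1H2BG start 283 bases apart and changed by 1.06 and 0.19, and by 0.45 and -0.79. HIST1H2AG and HIST1H2BJ start 292 bases apart and changed by 0.14 and -0.77, and by 0.62 and -0.24, with the H2B gene higher under each hairpin. HIST2H2AC and HIST2H2BE changed by 0.13 and -0.082, and by 1.03 and -0.39. HIST3H2BB, the neighbour of HIST3H2A, was at 0.65, 1.19 and 0.54 TPM, under the minimum. HIST1H2BK had 465 TPM in shCON while its neighbour HIST1H2AH was listed at 0. The H2A gene had the higher change in 6 of the 10 pairs under shUSP16#1 and in 6 of 10 under shUSP16#2.

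A list of 24 genes for histone 3′ end formation, decay and transcription, of which 23 were compared, had a median of -0.45 for shUSP16#1 and of -0.65 for shUSP16#2, both -0.28 relative to all genes, with 21 lower under shUSP16#1 (61.7% of all genes were) and 20 under shUSP16#2 (70.2% of all). SLBP was at 34.2 TPM in shCON, 18.3 under shUSP16#1 and 19.4 under shUSP16#2. CCNE2, a cyclin of the kinase that activates histone transcription, was at 12.1, 4.13 and 3.47 TPM, and CCNA2 at 38.2, 17.3 and 12.98 TPM. CPSF2, a subunit of the cleavage complex, was at 15.1, 7.12 and 3.96 TPM. NPAT, the coactivator of cluster genes, was at 3.36, 2.34 and 1.1 TPM, and ERI1, an exonuclease of histone mRNA decay, at 3, 2.81 and 1.54 TPM. CASP8AP2, at 1.45, 0.75 and 0.62 TPM, was under the minimum. POU2F1, the octamer factor of H2B promoters, was alone in its opposite values, at 9.07, 1.48 and 21.3 TPM. With the GC trend removed, the list lay -0.24 and -0.061 from all genes.

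Cluster histones are normally made in S phase, and S-phase genes were lower. All 42 compared genes of a 43-gene S-phase list were lower under shUSP16#1, where 61.7% of all genes were, and under shUSP16#2, where 70.2% were. The medians were -0.81 and -1.0, which is -0.64 and -0.63 relative to all genes, or -0.43 and -0.38 with the GC trend also removed. The most changed were USP1 at 16.9, 5.45 and 4.46 TPM, HELLS at 15.3, 5.03 and 4.1 TPM, CCNE2, and RRM2 at 163, 63.8 and 65.6 TPM. The S-phase list was thus lower in the shUSP16#1 library, in which summed cluster histone TPM was higher than in shCON. In bulk RNA, fewer cells in S phase and less mRNA per cell cannot be told apart.

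Histone chaperones escort histones to DNA or exchange variants. Of 35 genes on the list, 34 were compared, and the medians were -0.59 and -0.76, which is -0.42 and -0.39 relative to all genes. Of the 34, 29 were lower under shUSP16#1 (61.7% of all genes) and 30 under shUSP16#2 (70.2% of all). ANP32E, which removes H2A.Z, was at 40.3 TPM in shCON, 16.1 for shUSP16#1 and 10.3 for shUSP16#2. The nucleolar chaperones NCL, at 576, 245 and 196 TPM, and NPM1, at 1772, 848 and 694 TPM, were at least 2-fold lower under each hairpin. ATRX, a loader of the H3F3A and H3F3B protein, was at 8.23, 3.75 and 1.32 TPM. Genes of the complexes that load H2A.Z differed among themselves. The subunit genes VPS72, at 73.3, 78.2 and 82.0 TPM, and ZNHIT1, at 325, 385 and 393 TPM, were above shCON under each hairpin. The genes of their ATPases, SRCAP at 13, 8.48 and 7.72 TPM and EP400 at 12.8, 8.78 and 7.98 TPM, were below it. Of 11 other variant genes, CENPA, the centromeric H3 variant, was at 47.8, 32.3 and 22.9 TPM, H2AFY2 at 3.41, 2.75 and 3.23 TPM, and the other 9 had a mean under 1 TPM.

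RNA without a poly(A) tail differed widely between libraries, and cluster histone mRNA mostly lacks a tail. A list of 561 entries of this kind, of which 40 reached the minimum, held 525 5S entries (pseudogene entries included), 10 of 5.8S and 26 of spliceosomal, 7SK, signal recognition particle and similar RNA. They had a summed TPM of 10963 in shCON, 3529 under shUSP16#1 and 50146 under shUSP16#2. Without the 5S and 5.8S genes the sums were 5980, 1922 and 10123 TPM, and 14 of the 20 detected had their lowest value under shUSP16#1. That count includes RNU4ATAC and RNU12, which were listed at 0 both there and in shCON. The 5.8S entries summed to 4983, 587 and 13121 TPM, and the 5S entries to 0, 1021 and 26902 TPM. The sums without 5S were thus lowest under shUSP16#1, where the cluster histone sum was highest, and the 5S sum was lowest in shCON. Ordered by the smaller of the changes under the hairpins, the leading entries were RNA5S10, at 0, 336 and 2077 TPM, RNA5S17, at 0, 257 and 2321 TPM, RNA5S5, at 0, 205 and 991 TPM, and RNA5-8SN3, at 3179, 0.17 and 15.2 TPM, a single copy that did not follow the 5.8S sum. Among cluster genes, those also known to make polyadenylated mRNA had medians of 0.76 and -0.39, and the other 36 had 0.14 and -0.40. Whether RNA was selected by its poly(A) tail is not given in the sources used here, and the part of RNA selection in the histone values was not tested. RNU7-1, the RNA that guides histone 3′ end cleavage, was listed at 0 in all libraries.

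Changes in these libraries also followed the GC content of transcripts, and the part of this in the histone values was not tested beyond removing the trend. The median GC content was 56.7% for the compared cluster genes, and 49.1% for both the variants and all genes. H2A and H3 cluster genes were richer in GC, at 61.7% and 60.6%, than H2B and H4 genes, at 47.8% and 47.8%. With the trend removed and relative to all genes, the cluster medians were 0.52 under shUSP16#1 and -0.13 under shUSP16#2, and by class 0.48 and -0.11 for H1, 0.56 and -0.29 for H2A, 0.60 and 0.012 for H2B, -0.28 and -0.46 for H3, and 0.35 and 0.013 for H4. Under shUSP16#1 the cluster median of every class but H3 thus lay above that of all genes with or without the trend. The H3 median was 0.051 above with it and -0.28 without it. Single genes could lie below, as HIST1H2BK did at -0.42 with the trend removed.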

How the data were processed

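Total RNA of PC3 cells (shCON, shUSP16#1 and shUSP16#2, 1 library each) was extracted with Trizol and prepared with an Illumina TruSeq RNA kit. The deposited values are TPM with 2 decimals, made by the authors on the Majorbio Cloud Platform. The submitters' processing notes name hg19, CASAVA and HISAT2, while versions and the counting tool are not given in the sources used here. Gene identifiers matched GENCODE release 29 for 58516 of 60930 entries, so coordinates are quoted in GRCh38 and never as hg19. Depth is unknown, so no interval is given, and a value of 0 is described as listed at 0. The table holds 3 columns that repeat others and were not used, and the gene length in the table was used as deposited.

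From these values, entries repeating a name were reduced to the one of highest mean (1211 left out of 60930, 59719 kept), and those averaging 1 TPM or more (13637) were compared as differences of log2(TPM + 1), with a pseudocount of 1. A call is a change of at least 2-fold. Of 83 histone genes, 81 matched GENCODE by identifier and 2 by symbol. Uniqueness was measured as the share of 50-base windows found in transcripts of another gene. To remove the GC trend, compared genes were cut into 50 bins by GC content and each bin was shifted to the overall median change, for the 13306 compared genes with a GC value. Procedures were tested on simulated data. Python 3.11.15, numpy 2.4.6, pandas 2.3.3 and matplotlib 3.10.9 were used.

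The histone genes and the lists were chosen with earlier results of these data known, and the lists were written from general knowledge. Named were the 9 variants, the 3 most abundant cluster genes of each class, the 5 histone genes that rose most and the 5 that fell most under both hairpins by the smaller change, the cluster genes known to be polyadenylated, their divergent neighbours, the 4 most changed genes of each list, and SLBP, NPAT, CASP8AP2, ERI1, CENPA and USP16. Any further gene in the text is outside the rule, and its values were known when it was picked. Alternatives were another pseudocount, centring, other minimums, each hairpin alone, rescaling over protein-coding genes, removal of the GC trend, repeated names kept, and fewer cluster genes. Some marker genes are not reported here.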

Additional observations from a re-analysis of the deposited data

How the results depend on the processing

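No paired analysis was possible because there was 1 library per condition. Values here are the mean of both hairpins unless a hairpin is named, and the yardstick for a move is the SD of the 2 hairpins' values, which are not replicates, or for a count a factor of 1.5. Of 118 values under an alternative, 88 stayed within these limits, 13 moved and 17 changed sign. GC removal with centring, cluster genes with at most 50% of windows shared, and leaving out cluster genes listed at 0 were chosen after seeing the data. The cluster median (-0.058) was 0.15 with a minimum of 5 TPM, 0.21 when centred, 0.27 with shUSP16#1 alone and 0.20 with GC removal and centring. The variant median (-0.33) was 0.0042 with GC removal and centring. The cluster minus variant difference (0.27) was 0.48 with a minimum of 5 TPM. The H1 class (0.25) was 0.63 with a minimum of 5 TPM, which leaves only HIST1H1C in it, and -0.091 with GC removal. H2A (0.20) was -0.31 with shUSP16#2 alone and -0.14 with GC removal. H2B (-0.18) was 0.061 with a minimum of 5 TPM, 0.088 when centred, 0.16 with shUSP16#1 alone, 0.032 with GC removal and 0.31 with GC removal and centring. H3 (-0.24) was 0.18 with a minimum of 5 TPM, 0.033 when centred and -0.65 with GC removal. H4 (-0.27) was 0.0065 with shUSP16#1 alone and 0.18 with GC removal and centring. Among histone genes, the number lower by 2-fold or more under both hairpins (1) was 0 when centred, 2 with a pseudocount of 0.1, 2 with GC removal, 2 in shUSP16#1 alone and 6 in shUSP16#2 alone. Those at least 2-fold higher under both (1) numbered 3 when centred, 2 with a pseudocount of 0.1, 0 with a minimum of 5 TPM, 2 with GC removal and centring, and 8 in shUSP16#1 alone. Counting in 1 hairpin relaxes the condition, and the cause of the other moves was not tested. Rescaling TPM over protein-coding genes, which held 93.1%, 95.2% and 88.2% of TPM in shCON, shUSP16#1 and shUSP16#2, kept the direction of every summed class. Depth is unknown, so its limit on low genes cannot be stated.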
